A study of Mus musculus with 17 samples.

Results

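The myelin genes described here are Mbp, Mobp, Cnp, Mag, Mog, Opalin, Ugt8a, Mal and Cldn11, 9 protein-coding genes of the 31438 genes to which the deposited transcript counts were summed. They were chosen as a list of genes whose products build or belong to myelin, a rule that itself uses no measured value. Total RNA of mouse cerebella (strain C57BL/6, postnatal day 3) had been sequenced after removal of the meninges, as stranded poly-A libraries with 2 sequencing lanes each. The study compared deletion of Atr, the kinase that answers stalled replication forks, in cerebella that also lacked either p53 or the apoptosis effectors Bax and Bak.

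Every sample carried Math1-Cre, which is active in granule neuron progenitors and their lineage, so that loxP alleles are removed in those cells and not in oligodendrocytes. The Atr/p53 group (5 samples) carried Atr-loxP/loxP and p53-loxP/loxP, and its control, the p53 group (3 samples), carried p53-loxP/loxP without the Atr allele. The Atr/Bax/Bak group (5 samples) carried Atr-loxP/loxP and Bax-loxP/loxP on a Bak--/- germ line, and its control, the Bax/Bak group (4 samples), had Bax-loxP/loxP and Bak--/- alone. No sample was free of Cre, and Bak was missing from every cell of both Bax/Bak backgrounds, oligodendrocytes included. Replicate 3 of the Atr/p53 group held 13601 counts, of which 1 belonged to Cldn11, and was left out, which leaves 16 libraries. Its name is that of replicate 1 with a suffix, and whether it is a repeat of that sample was not tested.

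Oligodendrocytes form myelin by wrapping axons in sheets of their own membrane, and the proteins of this sheet are made as precursor cells stop dividing and mature. In the mouse cerebellum this begins around birth in the deep white matter and spreads outwards over the following weeks, so that at postnatal day 3 few cells have reached the stage at which these genes are strongly expressed. Granule neuron progenitors, the cells that Math1-Cre acts in, make up much of the tissue at this age and are not known to make myelin. In bulk RNA, fewer cells of a type and less RNA per cell cannot be told apart.

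The 16 libraries held 42987953 to 100659645 counts, where 1 count is worth at most 0.0233 CPM (counts scaled to library size). All 10 cerebellar markers searched for, among them Atoh1, En2, Pax6 and Pcp2, had counts in every library, and their summed level was 2079 to 3618 CPM, against 1.30 to 27.5 CPM for 17 genes of the brainstem and spinal cord. Bak1 averaged 0.427 ± 0.135 CPM in Atr/Bax/Bak cerebella and 0.369 ± 0.154 CPM in Bax/Bak cerebella, and 38.7 ± 4.40 CPM in Atr/p53 cerebella and 39.9 ± 2.19 CPM in p53 cerebella (SD, n = 5, 4, 4 and 3). Atr averaged 37.4 ± 2.84 CPM in Atr/p53 cerebella and 37.2 ± 0.968 CPM in p53 cerebella (adjusted p = 0.977, edgeR), and 39.3 ± 2.90 CPM in Atr/Bax/Bak cerebella and 43.7 ± 3.55 CPM in Bax/Bak cerebella (adjusted p = 0.28, edgeR). These Atr values count the whole gene in all cells, so they do not check the removal of single exons in the Cre lineage. The labels do not say whether the samples of a group came from separate litters, so the p-values speak only of differences among these libraries, part of which may be technical.

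Sample names begin with a number that differs between and within groups and is called the number series here. All Atr/Bax/Bak samples belonged to series 1836, and the Bax/Bak controls to series 100019 (replicates 1 and 2) and 1842 (replicates 3 and 4). All Atr/p53 samples belonged to series 1843, as did replicate 1 of the p53 controls, while replicates 2 and 3 of the p53 controls belonged to series 1845. What the number stands for is not given in the sources used here. Genotype and series cannot be told apart in the Bax/Bak background, and results are given below for each series of controls.

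Levels of different genes were compared as TPM (transcript abundance scaled to the library), which divides by transcript length. In Atr/Bax/Bak cerebella Mbp had the highest mean level of the 9 genes at 1496 ± 538 TPM, followed by Cnp at 269.9 ± 72.8 TPM (SD, n = 5). Mobp at 96.5 ± 63.1 TPM, Mag at 94.7 ± 49.8 TPM and Cldn11 at 80.9 ± 31.2 TPM came next and lay within each other's spread, as did Mog at 15.1 ± 8.10 TPM and Mal at 9.10 ± 4.69 TPM. Ugt8a stood between these sets at 42.5 ± 15.3 TPM, and Opalin was lowest at 0.389 ± 0.396 TPM. In Bax/Bak cerebella Mbp averaged 689 ± 299 TPM, Cnp 129 ± 34.3 TPM, Cldn11 51.9 ± 6.11 TPM and Mobp 28.2 ± 21.5 TPM (SD, n = 4). In Atr/p53 cerebella Mbp averaged 149 ± 45.7 TPM and Cnp 60.1 ± 12.8 TPM, while Mobp was at 1.17 ± 0.248 TPM and Mag at 4.41 ± 0.819 TPM (SD, n = 4). Mobp and Mag were thus close to Cldn11 in level in Atr/Bax/Bak cerebella, and below its 11.8 ± 5.66 TPM in Atr/p53 cerebella.

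**Figure D1:**
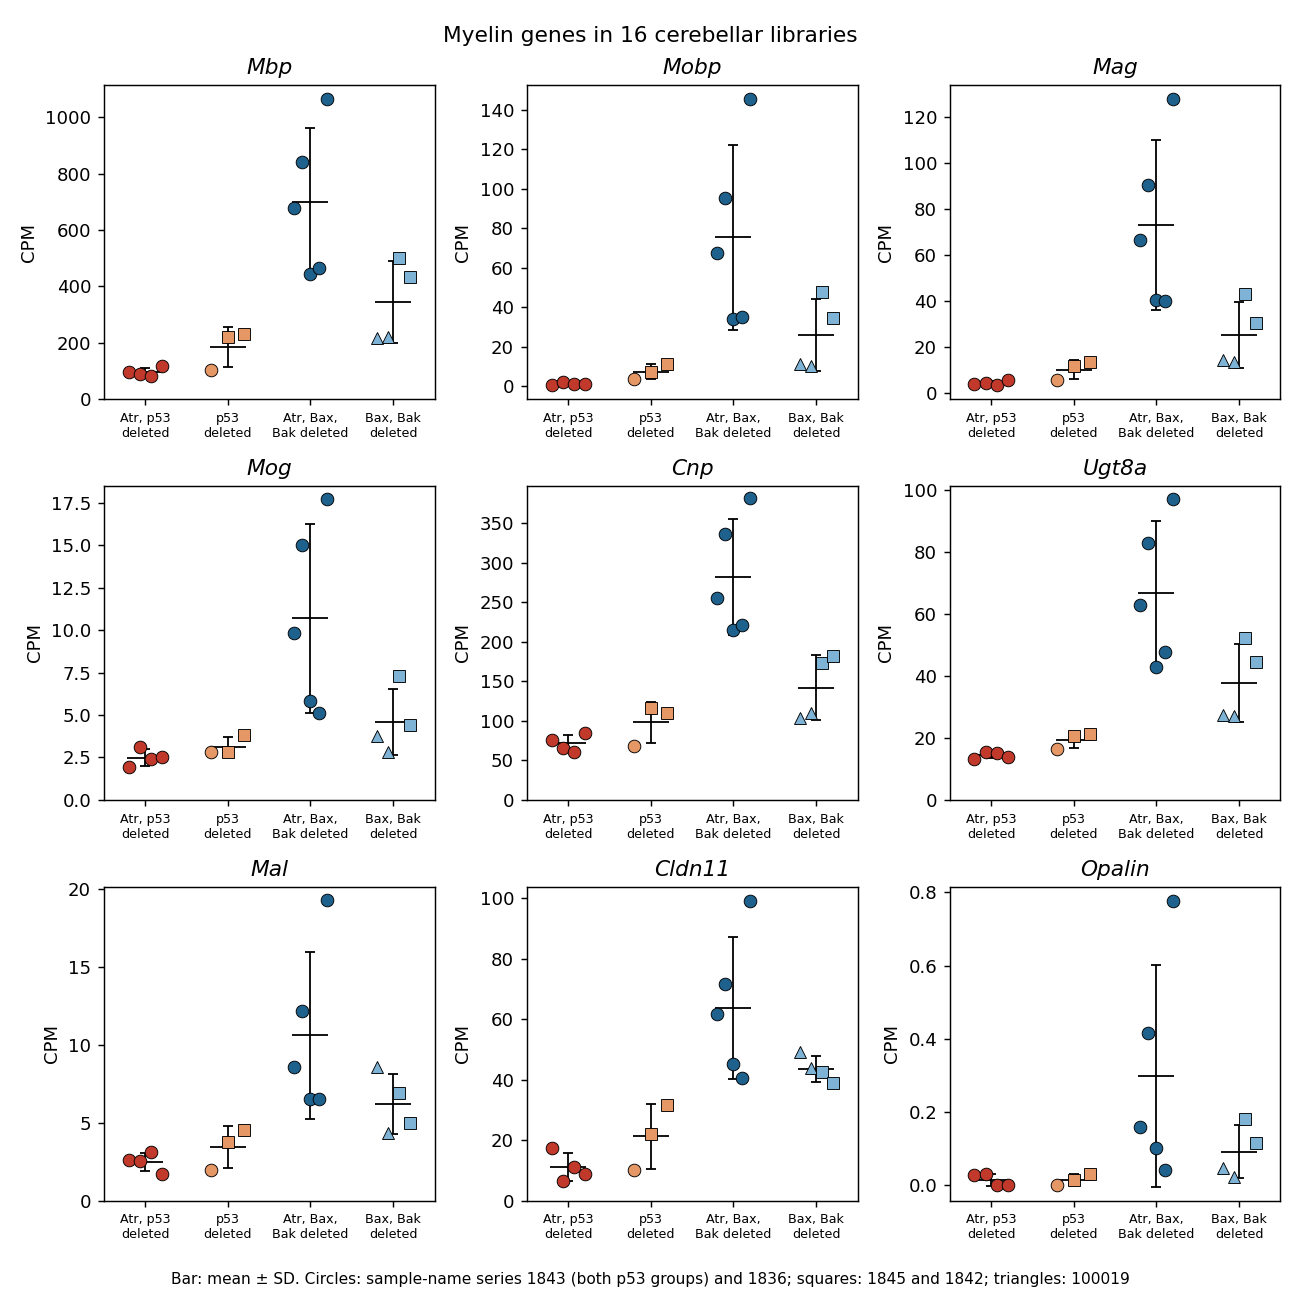
Level of each myelin gene in 16 libraries, in CPM on linear axes; each point is a library, the horizontal bar is the mean and the whiskers are 1 SD, and marker shapes give the number series. Atr/Bax/Bak libraries of every gene spread widely, and the Bax/Bak controls of Mbp, Mobp, Mag, Cnp and Ugt8a fall into a lower pair of series 100019 and a higher pair of series 1842.

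The Atr effect in the Bax/Bak background was positive for all 9 genes, as for 54.8% of all genes, and 4 of them rose: Mbp, Cnp, Mag and Mog. In this comparison 22.5% of all 17405 genes tested were called higher and 44.5% were called in either direction (edgeR quasi-likelihood test, Benjamini-Hochberg adjusted p below 0.05). The median log2 fold change of the 9 genes was 1.09, beside 0.04 over all genes. For 1 of the 9 genes, Cnp, the groups did not overlap, with every Atr/Bax/Bak library higher, as was so for 14.5% of all genes.

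Mbp encodes myelin basic protein, which holds the inner faces of the membrane together in compact myelin (gene at chr18:82475146-82585637, plus strand, GRCm38). It was at 677, 841, 444, 466 and 1065 CPM in Atr/Bax/Bak libraries, against 216, 222, 499 and 435 CPM in Bax/Bak libraries, given in replicate order here and below. Of the controls, replicate 3 lay within the range of the Atr/Bax/Bak libraries, replicate 4 just below it, and both of series 100019 far below it. Mbp rose 2.12-fold (log2 fold change 1.09 ± 0.37 SE, adjusted p = 0.0452, edgeR). Mobp encodes a small basic protein of the same compact layer (chr9:120149707-120181484, plus strand). Its levels were 67.4, 95.3, 34.2, 34.9 and 145 CPM in Atr/Bax/Bak libraries, against 11.4, 10.6, 47.9 and 34.5 CPM in Bax/Bak libraries. Both controls of series 1842 lay inside the Atr/Bax/Bak range and both of series 100019 below it, and the difference did not pass the test (log2 fold change 1.58 ± 0.66 SE, adjusted p = 0.0902, edgeR).

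Cnp encodes the cyclic nucleotide phosphodiesterase that keeps cytoplasm-filled channels open in the sheath and is made early in the lineage (chr11:100574904-100591729, plus strand). It was at 256, 336, 215, 221 and 381 CPM in Atr/Bax/Bak libraries, against 103, 109, 173 and 181 CPM in Bax/Bak libraries. The highest control stood below the lowest Atr/Bax/Bak library. Cnp rose 2.07-fold (log2 fold change 1.05 ± 0.25 SE, adjusted p = 0.00865, edgeR), and it was the 1 member called with each of the 9 libraries left out in turn (adjusted p 0.00902 to 0.0309).

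Mag, an adhesion protein of the innermost membrane that faces the axon (chr7:30899176-30914873, minus strand), was at 66.5, 90.7, 40.7, 40.3 and 128 CPM in Atr/Bax/Bak libraries, against 14.3, 13.5, 43.3 and 30.7 CPM in Bax/Bak libraries. One control, replicate 3 of series 1842, stood above the 2 lowest Atr/Bax/Bak libraries. Mag rose 2.97-fold (log2 fold change 1.57 ± 0.51 SE, adjusted p = 0.0394, edgeR). Mog, a protein of the outermost membrane made late in maturation (chr17:37010743-37023398, minus strand), was at 9.82, 15.02, 5.81, 5.12 and 17.7 CPM in Atr/Bax/Bak libraries, against 3.78, 2.85, 7.31 and 4.40 CPM in Bax/Bak libraries. Again replicate 3 of the controls lay inside the Atr/Bax/Bak range. Mog rose 2.41-fold (log2 fold change 1.27 ± 0.44 SE, adjusted p = 0.0443, edgeR). Opalin, a late membrane glycoprotein of oligodendrocytes (chr19:41061710-41077113, minus strand), had only 13, 35, 6, 3 and 47 counts in Atr/Bax/Bak libraries, against 2, 1, 13 and 11 counts in Bax/Bak libraries, and was not called (log2 fold change 1.62 ± 0.82 SE, adjusted p = 0.133, edgeR).

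The calls of Mbp, Mag and Mog were lost when any of 6 libraries was left out, namely replicates 1, 2 and 5 of Atr/Bax/Bak and replicates 1, 2 and 4 of Bax/Bak. Adjusted p then ran up to 0.122 for Mbp, 0.0998 for Mag and 0.122 for Mog, and the log2 fold changes stayed above 0, at 0.88 to 1.32, 1.28 to 1.95 and 1.02 to 1.59 over all 9 fits.

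Ugt8a encodes the enzyme that makes galactosylceramide, a main lipid of myelin (chr3:125865271-125938619, minus strand). It was at 63.0, 83.0, 43.0, 47.7 and 97.2 CPM in Atr/Bax/Bak libraries, against 27.5, 27.0, 52.2 and 44.5 CPM in Bax/Bak libraries. Series 1842 lay inside the Atr/Bax/Bak range and series 100019 below it, and the difference did not pass the test (log2 fold change 0.87 ± 0.31 SE, adjusted p = 0.0518, edgeR). Without Atr/Bax/Bak replicate 3 or 4 or Bax/Bak replicate 3, Ugt8a was called, with adjusted p down to 0.0331. Mal, a small raft protein that also occurs in Schwann cells (chr2:127633226-127656695, minus strand), was at 8.57, 12.2, 6.50, 6.51 and 19.2 CPM in Atr/Bax/Bak libraries, against 8.58, 4.32, 6.89 and 5.01 CPM in Bax/Bak libraries. Its highest control was replicate 1, which was low for Mbp, Mobp and Mag, and the groups overlapped (log2 fold change 0.83 ± 0.37 SE, adjusted p = 0.0987, edgeR).

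Cldn11 encodes the claudin of the tight junctions between myelin layers, and is also made by cells of the meninges (chr3:31149920-31164324, plus strand). It was at 61.8, 71.8, 45.2, 40.6 and 99.3 CPM in Atr/Bax/Bak libraries, against 49.1, 43.8, 42.7 and 38.9 CPM in Bax/Bak libraries. Its controls were close together, with series 100019 slightly above series 1842, unlike those of Mbp. The difference did not pass the test (log2 fold change 0.60 ± 0.26 SE, adjusted p = 0.0925, edgeR), though it did without Atr/Bax/Bak replicate 4 (log2 fold change 0.73, adjusted p = 0.0323). The summed level of 7 meningeal genes was 494, 410.5, 532, 393 and 503 CPM in Atr/Bax/Bak libraries, against 1416, 1027, 361 and 275 CPM in Bax/Bak libraries. None of the 7 was at 0 in any library, and none was called in the full comparison. The part of meningeal RNA in the Cldn11 values was not tested.

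**Figure D2:**
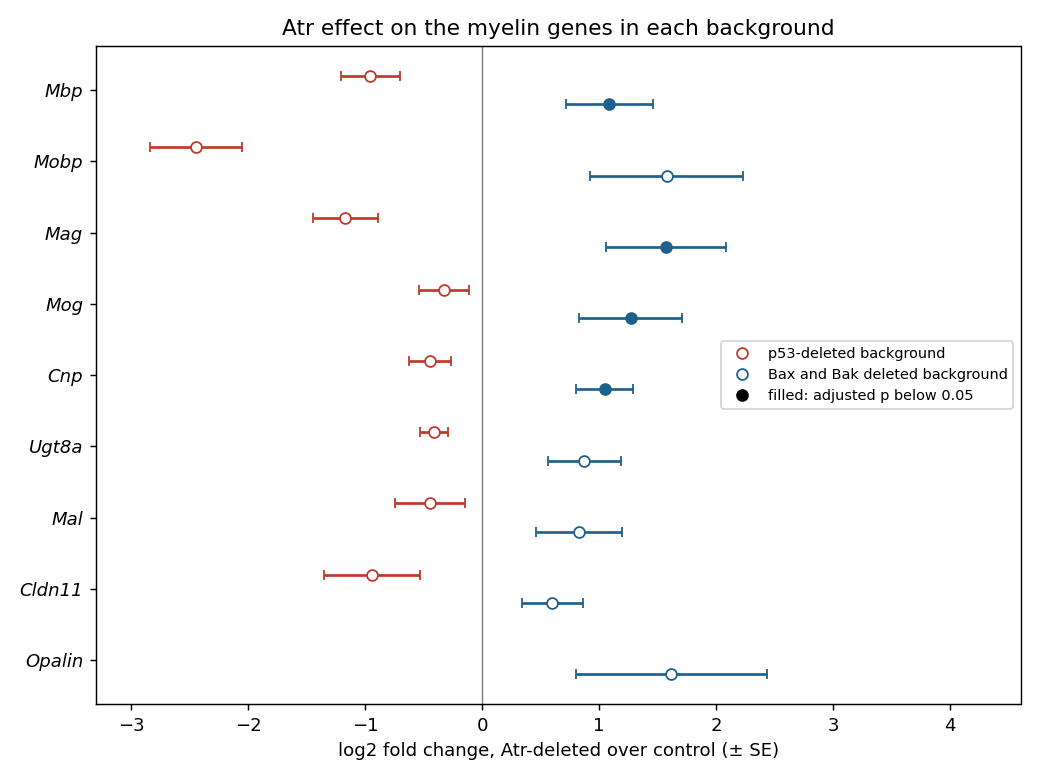
Log2 fold change of each myelin gene, Atr-deleted over control, in the p53 and Bax/Bak backgrounds; points are edgeR estimates with whiskers of 1 SE, and filled points have an adjusted p below 0.05. All 8 genes tested in the p53 background lie below 0 with none called, and all 9 in the Bax/Bak background lie above 0 with 4 called; Opalin was not tested in the p53 background.

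Atr deletion in the p53 background gave a negative effect for all 8 genes tested, and none was called (edgeR). Over all 17348 genes 0.0461% were called, 8 in number and all higher, and 47.5% had a log2 fold change below 0. Of the 8 genes, 5 had an unadjusted p below 0.05, as did 6.58% of all genes. Of the alternative tools, limma-voom called none of the 8 and 4 of all genes. DESeq2 called Mobp, Mag and Mbp (adjusted p = 1.27e-07, 0.00705 and 0.0163), among 128 of all genes. For Mobp and Ugt8a every Atr/p53 library was below every p53 library, as was so for 4.05% of all genes. Opalin had 2, 2, 0 and 0 counts in Atr/p53 libraries, against 0, 1 and 2 counts in p53 libraries, and no fold is given.

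Mobp was at 0.987, 2.12, 1.07 and 1.23 CPM in Atr/p53 libraries, against 3.59, 7.36 and 11.3 CPM in p53 libraries. The groups did not overlap, and the lowest control was the 1 that shared series 1843 with the Atr/p53 libraries. The difference had the lowest p of the 8 genes (log2 fold change -2.44 ± 0.39 SE, unadjusted p = 0.000138, adjusted p = 0.126, edgeR). It was called when p53 replicate 1 was left out (log2 fold change -2.77, adjusted p = 0.0388).

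Mbp was at 94.5, 87.4, 80.7 and 116 CPM in Atr/p53 libraries, against 102, 219.6 and 232 CPM in p53 libraries. Replicate 1 of the controls lay among the Atr/p53 libraries and the other controls stood above them all (log2 fold change -0.95 ± 0.25 SE, adjusted p = 0.501, edgeR). Without that replicate Mbp was called (log2 fold change -1.24, adjusted p = 0.0335). For Mag too, replicate 1 of the controls lay among the Atr/p53 libraries and the other controls stood above them all. Mag was at 4.09, 4.58, 3.82 and 5.75 CPM in Atr/p53 libraries, against 5.67, 11.8 and 13.4 CPM in p53 libraries (log2 fold change -1.17 ± 0.28 SE, adjusted p = 0.369, edgeR). Cldn11 was at 17.4, 6.69, 11.2 and 8.997 CPM in Atr/p53 libraries, against 10.2, 22.1 and 31.8 CPM in p53 libraries (log2 fold change -0.94 ± 0.41 SE, adjusted p = 0.753, edgeR). The summed meningeal genes had the same lowest and highest libraries within each group as Cldn11, at 292, 104, 175 and 154 CPM in Atr/p53 libraries, against 154, 300.1 and 565 CPM in p53 libraries.

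The other genes differed less. Cnp was at 75.1, 65.8, 61.1 and 84.6 CPM in Atr/p53 libraries, against 68.2, 116 and 110.3 CPM in p53 libraries (log2 fold change -0.44 ± 0.18 SE). Ugt8a was at 13.2, 15.6, 15.3 and 14.0 CPM in Atr/p53 libraries, against 16.3, 20.8 and 21.1 CPM in p53 libraries (log2 fold change -0.41 ± 0.12 SE). The log2 fold change was -0.44 ± 0.30 SE for Mal and -0.33 ± 0.21 SE for Mog, which had 1.92 to 3.09 CPM in Atr/p53 libraries, against 2.81 to 3.80 CPM in p53 libraries.

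Whether the Atr effect differed between the backgrounds was tested as an interaction over the 16 libraries, and it was lower in the p53 background for 5 of the 9 genes. In this test 8.08% of all 18166 genes were called lower and 16.2% were called in either direction (edgeR). The difference of the log2 fold changes, p53 background minus Bax/Bak background, was -4.02 ± 0.91 SE for Mobp (adjusted p = 0.011), -2.73 ± 0.66 SE for Mag (adjusted p = 0.0143) and -2.03 ± 0.51 SE for Mbp (adjusted p = 0.0163). It was -1.49 ± 0.33 SE for Cnp (adjusted p = 0.00844) and -1.28 ± 0.37 SE for Ugt8a (adjusted p = 0.0287). The differences of Mog (-1.59 ± 0.53 SE, adjusted p = 0.0512), Cldn11 (-1.53 ± 0.52 SE, adjusted p = 0.0601), Mal (-1.26 ± 0.51 SE, adjusted p = 0.105) and Opalin (-1.61 ± 1.92 SE, adjusted p = 0.625) did not pass. The calls of Mobp, Mag and Cnp held with each of the 16 libraries left out in turn, that of Mbp was lost without p53 replicate 3 (adjusted p = 0.0532), and that of Ugt8a was lost without any of 7 libraries, replicates 2 and 5 of Atr/Bax/Bak, 1 and 2 of Bax/Bak, 1 of Atr/p53 and 2 and 3 of p53 (adjusted p up to 0.0772).

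The largest separation lay between the Atr-deleted groups of the 2 backgrounds. All 9 genes were lower in Atr/p53 than in Atr/Bax/Bak cerebella, where 24.3% of all genes were called lower, and no Atr/p53 library reached an Atr/Bax/Bak library for any of the 9, as was so for 18.5% of all genes. The log2 difference was -5.84 ± 0.73 SE for Mobp (adjusted p = 3.09e-05), -4.04 ± 0.50 SE for Mag (adjusted p = 2.35e-05) and -2.92 ± 0.37 SE for Mbp (adjusted p = 2.59e-05), and reached down to -2.01 ± 0.23 SE for Cnp (adjusted p = 7.98e-06, edgeR). Opalin, with 4 counts in all Atr/p53 libraries against 104 counts in all Atr/Bax/Bak libraries, was also called (adjusted p = 0.00253). Mean levels were 1.35 ± 0.523 CPM in Atr/p53 cerebella and 75.4 ± 46.6 CPM in Atr/Bax/Bak cerebella for Mobp, and 71.7 ± 10.4 CPM in Atr/p53 cerebella and 282 ± 73.5 CPM in Atr/Bax/Bak cerebella for Cnp (SD, n = 4 and 5). All 9 calls held with each library left out in turn.

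The controls of the 2 backgrounds differed less. All 9 log2 differences, p53 minus Bax/Bak, were below 0, as were 50.4% of those of all genes, and 1 gene was called lower, Ugt8a (log2 difference -0.96 ± 0.28 SE, adjusted p = 0.0293, edgeR), where 8.71% of all genes were. Its call was lost without replicate 3 or 4 of Bax/Bak or any replicate of p53 (adjusted p up to 0.105). For Ugt8a, Mag and Cldn11 every p53 library lay below every Bax/Bak library, as was so for 15.0% of all genes. Background, deposited table and number series cannot be told apart in these last comparisons.

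The spread of the controls followed the number series for most of these genes. Mobp was 3.75-fold higher in series 1842, at a mean of 41.2 CPM, than in series 100019 at 10.98 CPM, and 2.59-fold higher in series 1845, at 9.31 CPM, than in series 1843 at 3.59 CPM. For Mbp the ratios were 2.13-fold between series 1842 and 100019 and 2.20-fold between series 1845 and 1843, and for Mag 2.66-fold and 2.23-fold in the same order. Cldn11 had a ratio of 0.879 between series 1842 and 100019 and 2.63 between series 1845 and 1843, and Mal had 0.923 and 2.14. These ratios rest on 2 libraries a series, and on 1 for series 1843, and have no test.

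With the series 1842 controls alone none of the 9 genes was called in the Bax/Bak background, beside 20.2% of all genes called higher. The log2 fold changes stayed above 0 at 0.61 for Mbp, 0.90 for Mobp, 1.01 for Mag and 0.69 for Cnp (adjusted p = 0.274, 0.354, 0.215 and 0.0796, edgeR). With the series 100019 controls alone 5 were called, Mbp, Mobp, Mag, Cnp and Ugt8a, beside 21.2% of all genes called higher. Mobp reached 2.82 with them (adjusted p = 0.0429, edgeR). Set against the single p53 control of series 1843, the Atr/p53 libraries gave -1.41 ± 0.42 SE for Mobp and -0.12 ± 0.20 SE for Mbp, with 0.064 for Cnp, 0.11 for Cldn11 and 0.36 for Mal on the other side of 0, and nothing was called among the 8. With number series as a term in the fit the values were close to these, -1.40 for Mobp and -0.11 for Mbp. The interaction called 6 of the 9 genes with the controls of series 100019 and 1845 and 5 with those of series 1842 and 1845, but 0 with series 1843 and either series of Bax/Bak controls, where the p53 control was 1 library. With series 100019 and 1843 the differences were -4.18 for Mobp (adjusted p = 0.0807), -2.70 for Mag, -1.78 for Mbp, -1.33 for Cnp and -1.45 for Ugt8a. With series 1842 and 1843 they were smaller, at -2.29 for Mobp (adjusted p = 0.265), -1.30 for Mag, -0.70 for Mbp, -0.61 for Cnp and -0.64 for Ugt8a.

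**Figure D3:**
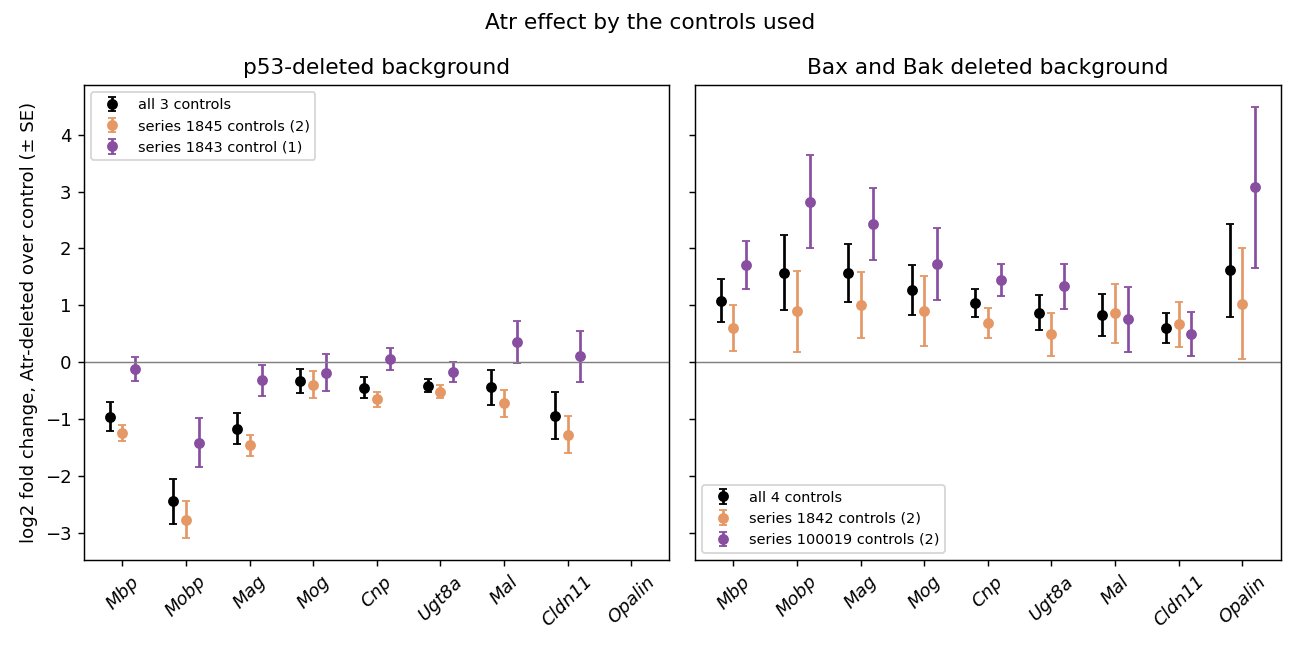
Log2 fold change of each myelin gene, Atr-deleted over control, by the controls used; points are edgeR estimates with whiskers of 1 SE, black with all controls and coloured with 1 number series of controls (number of libraries in brackets). In the p53 background the series 1843 control gives values between -0.32 for Mag and 0.36 for Mal for all genes but Mobp, which is at -1.41, and in the Bax/Bak background series 1842 gives smaller values than series 100019 for Mbp, Mobp, Mag, Mog, Cnp, Ugt8a and Opalin.

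Mbp has 2 main start sites. The downstream start gives the classic myelin basic proteins, and the far upstream start gives the golli transcripts, which neurons and immune cells also make. Of the 16 annotated Mbp transcripts in the tables, the 11 of the downstream start (82554470 to 82554580 on chromosome 18) summed to 638 ± 259 CPM in Atr/Bax/Bak cerebella and 279 ± 137 CPM in Bax/Bak cerebella (SD, n = 5 and 4), and to 46.6 ± 12.9 CPM in Atr/p53 cerebella and 129 ± 66.0 CPM in p53 cerebella (SD, n = 4 and 3). The 4 transcripts of the upstream start (82475146 to 82475370) summed to 60.2 ± 3.71 CPM in Atr/Bax/Bak cerebella and 63.8 ± 8.77 CPM in Bax/Bak cerebella, and to 47.9 ± 6.56 CPM in Atr/p53 cerebella and 55.1 ± 5.86 CPM in p53 cerebella. The upstream start gave 9.49 ± 2.95% of Mbp counts in Atr/Bax/Bak cerebella and 20.6 ± 6.15% in Bax/Bak cerebella, and 51.1 ± 7.50% in Atr/p53 cerebella and 33.1 ± 12.5% in p53 cerebella. These are shares of counts, which longer transcripts raise. As TPM the upstream start was at 42.0 ± 4.86 and the downstream start at 1452 ± 534 in Atr/Bax/Bak cerebella, and in Bax/Bak cerebella they were at 36.7 ± 5.36 and 651 ± 294. Atr/p53 cerebella had 24.4 ± 4.93 TPM from the upstream and 124 ± 42.9 TPM from the downstream start, and p53 cerebella 31.5 ± 5.78 TPM and 309.7 ± 179 TPM in the same order, so the downstream start had the higher mean in each group on this scale.

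Single transcripts were tested among all transcripts, of which 15.5% of 52785 were called in the Bax/Bak background. The golli transcript Mbp-205 fell there (log2 fold change -0.47 ± 0.08 SE, adjusted p = 0.00331, edgeR), at 35.0 ± 2.46 CPM in Atr/Bax/Bak cerebella and 47.9 ± 4.73 CPM in Bax/Bak cerebella. Mbp-201, which has the upstream start but runs to the end of the classic transcripts, rose (0.70 ± 0.20 SE, adjusted p = 0.0439), as did Mag-203 (1.53 ± 0.40 SE, adjusted p = 0.0294), Cnp-201 (0.89 ± 0.20 SE, adjusted p = 0.0139) and Cnp-204 (1.25 ± 0.34 SE, adjusted p = 0.0345). Mbp-211, the classic transcript with the highest mean CPM in both groups (not corrected for length), was at 324 ± 147 CPM in Atr/Bax/Bak cerebella and 125 ± 69.1 CPM in Bax/Bak cerebella, and was not called (1.38 ± 0.43 SE, adjusted p = 0.0607). No transcript of the 9 genes was called in the p53 background, where 0.00942% of 53095 were. The counts were estimated, and reads shared by overlapping transcripts were divided among them, which limits these values more than the gene sums.

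**Figure D4:**
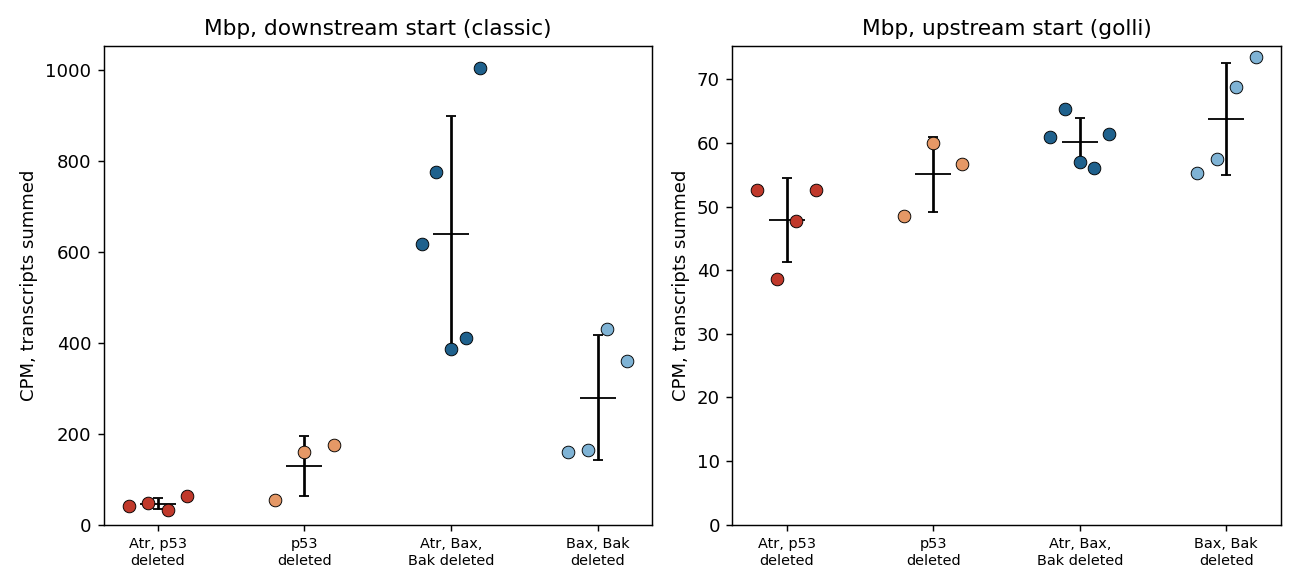
Summed CPM of the Mbp transcripts with the downstream (classic) start, left, and the upstream (golli) start, right, on linear axes of different range; points are libraries, with the mean and 1 SD. Classic levels run between 32.8 and 1003 CPM over the 16 libraries, and golli levels between 38.7 and 73.5 CPM.

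Around their group means the 9 genes varied together to differing degrees, over the 16 libraries taken as 1 set. After each group's mean was subtracted from log2 CPM, a gene's correlation with the mean of the other 8 over the 16 libraries was highest for Mag (r = 0.94) and Ugt8a (r = 0.94) and lowest for Cldn11 (r = 0.55) and Mal (r = 0.71). The genes outside the list with the most similar pattern to the mean of the 9, among 14501 genes with a mean of at least 1 CPM, were Aatk (r = 0.95), Fa2h (r = 0.93), Lgi3 (r = 0.93), Nacc2 (r = 0.92), Inpp5j (r = 0.92) and Gal3st1 (r = 0.92). Fa2h makes the hydroxylated fatty acids of myelin lipids, and Gal3st1 adds sulphate to the galactosylceramide that Ugt8a makes. The points share libraries and scaling, so these are descriptions without a test. Means of the number series were not subtracted, so differences between series among the controls are part of these correlations. The mean log2 CPM of the 9 genes, relative to its mean over all libraries, ran from -1.56 to -1.36 in Atr/p53 libraries. In Atr/Bax/Bak libraries it ran from 0.62 to 2.27. Controls were at -0.02, -0.26, 0.92 and 0.56 in Bax/Bak libraries, and at -1.31, -0.54 and -0.26 in p53 libraries. Bax/Bak replicate 3 thus stood above Atr/Bax/Bak replicates 3 and 4, at 0.73 and 0.62. In the Bax/Bak background Fa2h rose (log2 fold change 1.02 ± 0.24 SE, adjusted p = 0.00689), as did Gal3st1 (0.99 ± 0.20 SE, adjusted p = 0.00234), Inpp5j, an inositol phosphatase (1.05 ± 0.14 SE, adjusted p = 0.000216), and Lgi3 (0.89 ± 0.19 SE, adjusted p = 0.00486). Nacc2 (0.61 ± 0.08 SE, adjusted p = 0.000146) and Aatk (0.37 ± 0.13 SE, adjusted p = 0.0425, edgeR) rose too, beside 22.5% of all genes called higher.

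Because the genes varied together, the bases before their start sites are shown for 4 members that hold words of 2 regulators of oligodendrocytes. RefSeq start sites on build GRCm38.p6 gave windows of 250 bases for 8 of the 9 genes, with none for Mbp. The words searched on both strands were CTGGCAC and CTGGTAC, contained in the sites bound by Myrf, the factor that drives myelin genes, and ACAAAG and ACAATG, the core bound by Sox factors such as Sox10, none of which overlap each other here. Capitals mark these words, also where they read on the other strand. The runs, 5′ to 3′ on the strand of the gene, end at the base before the GENCODE gene, at chr9:120149492-120149706 (plus), chr7:30914874-30915113 (minus, 1 of 3 RefSeq starts of Mag), chr17:37023399-37023648 (minus) and chr11:100574689-100574903 (plus).
Mobp: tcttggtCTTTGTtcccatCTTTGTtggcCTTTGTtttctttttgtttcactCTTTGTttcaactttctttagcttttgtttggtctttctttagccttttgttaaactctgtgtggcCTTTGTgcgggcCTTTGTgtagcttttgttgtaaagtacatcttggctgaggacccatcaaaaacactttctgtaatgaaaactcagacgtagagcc
Mag: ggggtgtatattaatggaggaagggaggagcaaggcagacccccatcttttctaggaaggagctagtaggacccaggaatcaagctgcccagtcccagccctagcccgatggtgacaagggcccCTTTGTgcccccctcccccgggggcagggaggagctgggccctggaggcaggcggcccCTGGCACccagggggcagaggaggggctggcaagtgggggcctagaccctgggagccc
Mog: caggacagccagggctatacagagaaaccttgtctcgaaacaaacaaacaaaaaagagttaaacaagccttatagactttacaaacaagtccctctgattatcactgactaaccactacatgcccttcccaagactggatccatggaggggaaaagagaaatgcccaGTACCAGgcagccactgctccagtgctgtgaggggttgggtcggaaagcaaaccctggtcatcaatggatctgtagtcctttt
Cnp: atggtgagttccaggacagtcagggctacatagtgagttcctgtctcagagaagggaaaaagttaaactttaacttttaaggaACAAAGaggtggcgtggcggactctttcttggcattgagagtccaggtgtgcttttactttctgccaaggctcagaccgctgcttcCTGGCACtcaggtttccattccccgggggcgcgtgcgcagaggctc
A Myrf word stood in the windows of 3 of the 8 genes, Mag, Mog and Cnp, and in 5.93% of all 32851 windows. A Sox word stood in the windows of 4, Mobp with 6 of them, Mag, Cnp and Opalin, and in 25.2% of all windows. The E-box CAGCTG, searched likewise, was in none of the 8 and in 13.0% of all windows. The counts for the 8 genes are per gene, counted when any window of the gene held the word, and Mag had 3 windows. The percentages are per window, so the 2 are not on the same unit. A match is a description of letters and not of binding. The regulators' own transcripts both rose in the Bax/Bak background, Myrf with 41.4 ± 11.3 CPM in Atr/Bax/Bak cerebella and 18.5 ± 5.85 CPM in Bax/Bak cerebella (log2 fold change 1.22 ± 0.26 SE, adjusted p = 0.00529, edgeR) and Sox10 with 59.2 ± 10.3 CPM and 29.5 ± 5.33 CPM in the same groups (1.06 ± 0.15 SE, adjusted p = 0.000412). With p53 deleted Myrf had a log2 fold change of -0.64 ± 0.31 SE and Sox10 of -0.19 ± 0.13 SE (adjusted p = 0.775 and 0.844). Both were named because their words were searched.

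Of 27 other genes of myelin and oligodendrocytes, 18 rose and 1 fell in the Bax/Bak background, beside 22.5% of all genes called higher and 22.0% called lower, with a median log2 fold change of 0.67 beside 0.04 over all genes. Lpar1, a receptor for lysophosphatidic acid, rose (0.66 ± 0.07 SE, adjusted p = 5.06e-05), as did Plekhb1 (0.67 ± 0.09 SE, adjusted p = 0.000143). Anln, a cytokinesis protein of dividing cells that is also found in myelin, was the gene that fell (-0.73 ± 0.07 SE, adjusted p = 1.45e-05). With the series 1842 controls alone 11 of the 27 rose, beside 20.2% of all genes, and 1 fell.

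Of 10 transcription factors of the lineage, 9 rose and 1 fell in the Bax/Bak background, beside 22.5% of all genes called higher and 22.0% called lower. Those that rose included Tcf7l2 (0.79 ± 0.07 SE, adjusted p = 1.53e-05), Olig2 (0.63 ± 0.07 SE, adjusted p = 6.21e-05) and Sox8 (0.61 ± 0.07 SE, adjusted p = 6.4e-05, edgeR). Of 12 genes of precursors and newly formed oligodendrocytes, 10 rose and 1 fell, beside the same shares of all genes. Cspg4, the NG2 proteoglycan of precursors and pericytes, rose by 1.35 ± 0.05 SE (adjusted p = 2.18e-07) and Vcan by 0.56 ± 0.06 SE (adjusted p = 3.52e-05), whereas Pdgfra, the growth factor receptor of precursors, fell by 0.35 ± 0.05 SE (adjusted p = 0.000151). With the series 1842 controls alone 8 of the 10 factors and 7 of the 12 precursor genes rose, as did 20.2% of all genes, with median log2 fold changes of 0.54 and 0.51. None of the 9 myelin genes was called with these controls, while their log2 fold changes ran between 0.49 for Ugt8a and 1.03 for Opalin. The interaction was lower in the p53 background for 17 of the 27 genes, 7 of the 10 factors and 9 of the 12 precursor genes, and higher for 1 of them, Anln, where 8.08% of all genes were called lower. In the p53 background no gene of these 3 lists was called, and the lowest p belonged to Zfp488 among the factors (-0.27 ± 0.10 SE, adjusted p = 0.644) and to Pdgfra among the precursor genes (-0.42 ± 0.10 SE, adjusted p = 0.383).

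Markers of other cells were measured in the same fits, and their part in the myelin values was not tested. In the Bax/Bak background all 8 genes of astrocytes and Bergmann glia and 6 of 8 microglial genes rose, beside 22.5% of all genes called higher. The astrocyte and Bergmann glia genes summed to 4115 to 5638 CPM in Atr/Bax/Bak libraries, against 2850.4 to 3462 CPM in Bax/Bak libraries. The microglial genes were at 123 to 158 CPM against 84.3 to 119 CPM in the same order. Of the 10 cerebellar genes, 7 fell, as did 22.0% of all genes, among them Atoh1, which marks granule neuron progenitors (-0.67 ± 0.10 SE, adjusted p = 0.00034), Pax6 (-0.66 ± 0.09 SE, adjusted p = 0.000142) and Barhl1 (-0.79 ± 0.11 SE, adjusted p = 0.000314). The 2 that rose were Pcp2 (0.96 ± 0.22 SE, adjusted p = 0.00834) and Calb1 (0.53 ± 0.11 SE, adjusted p = 0.00364, edgeR). Of 9 Schwann cell genes tested, 2 rose, close to the 22.5% of all genes called higher, namely Cdh19 (1.34 ± 0.41 SE, adjusted p = 0.0206) and Drp2 (0.19 ± 0.05 SE, adjusted p = 0.00545). None of the genes of choroid plexus (6), meninges (7) or brainstem and spinal cord (10 tested) was called with all controls. With the series 1842 controls alone 4 meningeal genes and 1 of 12 brainstem and spinal cord genes rose, as did 20.2% of all genes. With those of series 100019 alone 6 meningeal genes fell, where 7346 of all genes were called in either direction and 21.2% were called higher. Choroid plexus genes summed to 32.4 to 2678 CPM in Atr/Bax/Bak libraries, against 3751 and 1802 CPM in the series 100019 controls and 63.0 and 66.3 CPM in the series 1842 controls. No gene of these lists was called in the p53 background.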

How the data were processed

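As deposited by the authors, each background had a table of estimated counts for Ensembl transcripts in each lane, with no normalization recorded. The submitters' processing notes name kallisto 0.42.4, edgeR, mm9 and GRCm38 without their roles. Of 94080 transcript identifiers, 92284 matched GENCODE M21 (GRCm38), the source of names and gene coordinates, and the others held 0.779% to 1.039% of counts in the 16 libraries. Lanes were added, transcripts summed to 31438 genes, and sums rounded to whole numbers. The shallow library had identical lanes, counted once.

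CPM used TMM scaling over the 16 libraries jointly, and TPM the annotated transcript lengths. Tests were edgeR 4.0.16 quasi-likelihood F-tests in R 4.3.3 (TMM, default expression filter, robust), adjusted by Benjamini-Hochberg over all genes at 0.05. Each background was fitted by itself, and the last 3 comparisons jointly. SE is the log2 fold change over the square root of F. The fits were also run on simulated data that held no number series, which does not check the calls made here. Alternatives were other scalings, filters and tools (DESeq2 1.42.0, limma 3.58.1), subsets of controls, and each library left out.

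The 9 genes, the gene lists and the control subsets were chosen with earlier results of these data known. Named genes are the 9, up to 3 called genes of lowest p per list and comparison (or the 1 of lowest p), and the 6 most similar in pattern. Myrf, Sox10 and the deleted genes were named in addition, after their values were seen. Some genes that the rule names are not reported here.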

Additional observations from a re-analysis of the deposited data

Results flagged for a closer look

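For 5 of the 9 myelin genes the effect of Atr deletion differed between the p53 and Bax/Bak backgrounds by the interaction test, the p53 background being lower. Of all genes 8.08% were called lower and 16.2% in either direction. The differences in log2 fold change were -2.03 for Mbp, -4.02 for Mobp, -2.73 for Mag, -1.49 for Cnp and -1.28 for Ugt8a. Controls of series 1842 and 1843 alone gave -0.70, -2.29, -1.30, -0.61 and -0.64 in the same order. Those of series 100019 and 1843 gave -1.78, -4.18, -2.70, -1.33 and -1.45. The p53 control was 1 library in both. No library stood apart from its group in any of the 27 sets of 4 or 5 libraries examined, where chance alone flags about 1 in 20. The p53 group, with 3 libraries, was not among these sets. Single libraries were examined, so the pairs of Bax/Bak controls by number series were not addressed.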

How the results depend on the processing

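The direction of the Atr effect in the Bax/Bak background held under every alternative run, as did the calls between the Atr-deleted groups, except that a filter on a mean of at least 1 CPM left Opalin untested and 8 called. Calls of single genes near the threshold did not all hold. The cause of these changes was not tested. No paired analysis was possible because the labels do not pair samples across groups. Replicate numbers were assigned here, as the labels give none. The fit with number series as a term rests on the 1 p53 control that shares series 1843 with the Atr/p53 libraries. In the Bax/Bak background 4 genes were called, 0 with control replicates 3 and 4 only, 1 without a filter, 1 at a threshold of 0.01, and 1 to 6 with a library left out. Over all genes 7744 were called there, 8050 with control replicates 3 and 4 only, and 7346 with control replicates 1 and 2 only. Without a filter 7376 of all were called, at 0.01 5331, and with a library left out 6704 to 7760. In the p53 background 0 were called, 3 by DESeq2, 2 with control replicates 2 and 3 only, 1 with the shallow library kept, which may repeat Atr/p53 replicate 1, and 0 to 2 with a library left out. Over all genes 8 were called there, 128 by DESeq2, 5 with control replicate 1 only, 13 with control replicates 2 and 3 only, 70 in the joint fit, 4 by limma-voom, 14 without a filter, 2 with number series as a term, 23 with the shallow library kept, 2 at 0.01, and 2 to 13 with a library left out. The effects of Cnp, Mal and Cldn11 there turned to 0.064, 0.36 and 0.11 with control replicate 1 only and to 0.0738, 0.36 and 0.12 with number series as a term. The interaction called 5, 8 by DESeq2, 1 at 0.01, and 3 to 7 with a library left out. Over all genes it called 2936, 3795 by DESeq2, 1175 at 0.01, and 1629 to 3561 with a library left out. With controls chosen after seeing the data, series 100019 and 1845 gave 2749 of all and series 1842 and 1845 gave 3309. Chosen after seeing the data, controls of series 100019 and 1843 gave 0 genes of the 9 and 252 of all, and those of series 1842 and 1843 gave 0 and 449, with Opalin at 0.0711 and 2.22. Between the Atr-deleted groups 8567 of all genes were called, and 7642 to 8668 with a library left out. Between controls 1 gene of the 9 was called, 4 by DESeq2, 2 by limma-voom, 0 without a filter, 2 without robust moderation, 0 at 0.01, and 0 to 1 with a library left out. Over all genes 3272 were called there, 4152 by DESeq2, 3243 by limma-voom, 2624 without a filter and 3297 without robust moderation. At 0.01 1291 of all were called, and with a library left out 1883 to 4698. Controls of series 100019 and 1843 gave 0 genes of the 9 and 630 of all, series 100019 and 1845 gave 0 and 1479, with Mbp at 0.0295 and Cnp at 0.0747, series 1842 and 1843 gave 2 and 1093, and series 1842 and 1845 gave 2099 of all. Depth limits Opalin, with 4 counts in Atr/p53 libraries and 3 counts in p53 libraries.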
